A study of Mus musculus with 12 samples.

Results

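Expression of 10 genes of the blood vessel lining and of VEGF signalling was followed in lactating mammary glands of mice that lack butyrophilin 1a1 and in wild-type glands. The 10 genes are Kdr, Flt1, Tek, Tie1, Pecam1, Cdh5, Eng, Esam, Plvap and Vegfa. They were taken by symbol from the authors' deposited table of 11834 genes, and all 10 were in it. The study sequenced polyA RNA from 12 C57BL/6 mice in lactation 1, with 1 library per mouse: 7 knockout (KO, Btn1a1-/-) and 5 wild type (WT). Of the KO glands 5 were taken on lactation day 10, 1 on day 8 and 1 on day 11, and of the WT glands 3 were taken on day 10, 1 on day 9 and 1 on day 11. Per the labels the mutant line was kept apart from the wild-type mice by mating heterozygotes, and 2 diets were in use without a record of which mouse ate which, so genotype, line and diet cannot be told apart.

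Vascular endothelial growth factor A, the product of Vegfa, is secreted by epithelial and other cells and acts on endothelial cells that carry the tyrosine kinase receptors KDR and FLT1. KDR gives most of the growth and permeability signal, whereas FLT1 binds the ligand tightly with a weak kinase and also exists as a secreted decoy. A separate receptor pair, TEK and TIE1, responds to angiopoietins and holds vessels in a quiescent state. In the mammary gland the capillary network around the alveoli grows during pregnancy, serves milk synthesis in lactation and regresses after weaning.

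All values are log2 CPM, that is log2 of a gene's reads scaled to a common library total. They had also been quantile-normalized before deposit, and had nearly the same distribution in every library. Btn1a1 itself averaged 5.63 ± 0.30 log2 CPM in KO and 11.07 ± 0.09 in WT (SD, n = 7 and 5), so the libraries matched their labels. Luminal epithelial markers were present in all libraries, and their summed level lay between 1060 and 1292 CPM in KO libraries and between 1053 and 1297 CPM in WT libraries. Skeletal muscle RNA was present too, and its 12 markers summed to between 110 and 1794 CPM in KO libraries and between 75.0 and 524 CPM in WT libraries. Read counts are not in the table, so the depth behind each value is unknown. In whole tissue, fewer cells of a type and less RNA per cell cannot be told apart.

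Kdr, the main signalling receptor of VEGF-A, was lower in KO glands and was the 1 gene of the 10 that passed the test. None of the 10 was higher and none had groups free of overlap. By the same test (limma with Benjamini-Hochberg adjustment over all genes, adjusted p under 0.05) 9.36% of all genes in the table were called, with 4.52% lower and 4.84% higher in KO, and 5.43% had groups that did not overlap. At an unadjusted p under 0.05 stood 1 of the 10 genes and 26.6% of all genes. A count of 1 in 10 is near that background, so it says nothing particular about the group. The median log2 change of the 10 genes was -0.09, against -0.03 over all genes tested. For the other 9 genes the changes lay between -0.18 and 0.03, with adjusted p from 0.444 to 0.989. Their 95% intervals together ran from -0.52 to 0.48, so changes from 0.697-fold to 1.39-fold lay within them.

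In KO glands Kdr ranged from 3.22 to 3.87 log2 CPM with a median of 3.39, while WT replicates 1 to 5 held 4.06, 4.36, 4.03, 4.27 and 3.56. Of the 7 KO libraries 5 lay below every WT library. The groups met because WT replicate 5 was low and KO replicates 4 and 7 lay above it. The means were 3.49 ± 0.24 in KO and 4.06 ± 0.31 in WT (SD, n = 7 and 5). The log2 change was -0.57 (SE 0.14, 95% interval -0.87 to -0.27, limma adjusted p = 0.0234), which leaves 67.5% of the WT level. The authors' deposited table gives Kdr the same change, -0.57, at an adjusted p of 0.0256, and calls 9.64% of its genes. The call ended without WT replicate 1, 2 or 4 (adjusted p = 0.0551, 0.0638 and 0.0558) and in the day 10 libraries alone (log2 change -0.49, adjusted p = 0.107). When muscle marker level was added to the fit, the change was -0.61 and the adjusted p 0.0583.

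**Figure D1:**
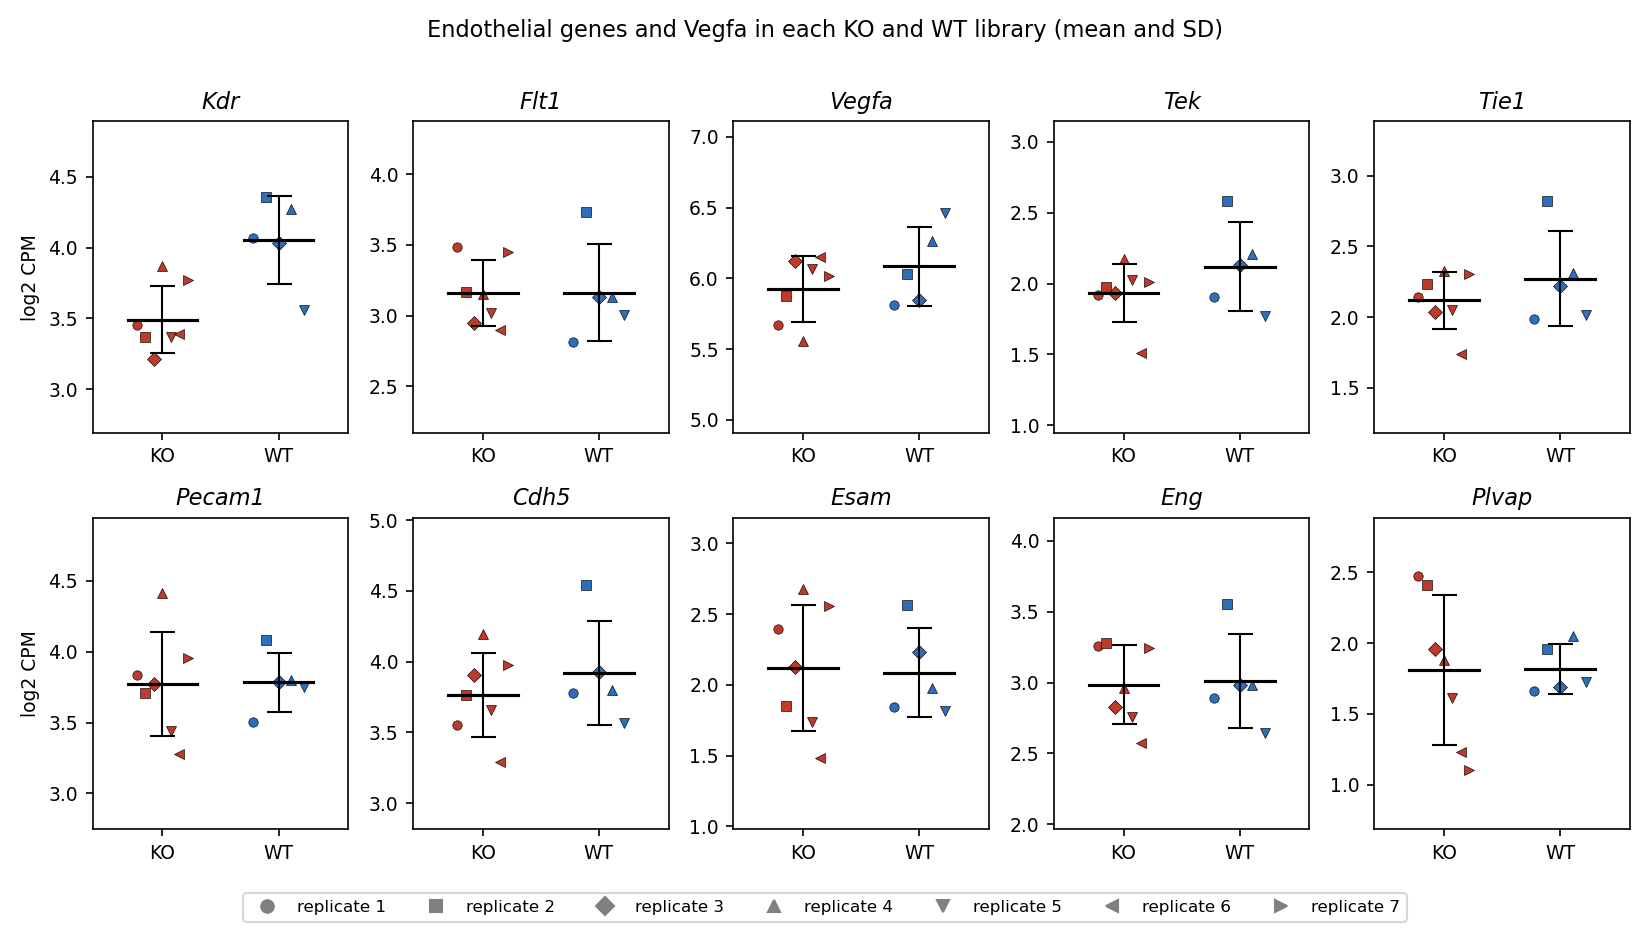
Level of each of the 10 genes in log2 CPM (vertical axis, the same span of 2.2 log2 units in each panel) in KO (left, red) and WT (right, blue) glands; each point is 1 library, its shape gives the replicate number, and bars are mean and SD. Kdr averaged 3.49 in KO and 4.06 in WT, while the group means of Flt1, Pecam1 and Plvap lie side by side.

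Flt1, the high-affinity VEGF-A receptor with a weak kinase, had nearly equal means in the groups. Its KO libraries ran from 2.90 to 3.48 log2 CPM with a median of 3.15, and WT replicates 1 to 5 held 2.81, 3.73, 3.13, 3.13 and 3.01. The WT range enclosed the whole KO range. The mean was 3.16 in both groups (SD 0.23 in KO, n = 7; SD 0.34 in WT, n = 5), with a 95% interval of the log2 change from -0.32 to 0.31 (limma adjusted p = 0.987). A gene-level value cannot separate the membrane receptor from its secreted form.

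The balance of the receptor pair was examined within each library, where a factor common to both genes largely drops out, though not exactly in quantile-normalized values. Flt1 minus Kdr had a median of -0.32 on the log2 scale in KO libraries, with a lowest value of -0.72 and a highest of 0.03. In WT replicates 1 to 5 it was -1.25, -0.63, -0.90, -1.14 and -0.55. All KO libraries except replicate 4 lay above all 5 WT libraries. The difference averaged -0.33 ± 0.23 in KO and -0.89 ± 0.31 in WT (SD, n = 7 and 5). The ratio of Flt1 to Kdr was thus 1.48-fold higher in KO (log2 difference 0.56, exact two-sided permutation p = 0.00631, adjusted p = 0.0316 over 5 pairs). The log2 change was -0.57 for Kdr and -0.01 for Flt1, so this difference restates the lower Kdr of the same libraries and is no separate result. The genes were chosen with earlier results of these data known. In the day 10 libraries alone Flt1 minus Kdr was 0.71 higher in KO, with all 5 KO above all 3 WT libraries (exact permutation p = 0.0179, the smallest that 5 against 3 allows, adjusted p = 0.0893). Leaving out 1 library kept the difference between 0.47 and 0.65, and the adjusted p by exact permutation passed 0.05 without KO replicate 1, 2, 3, 5 or 7 or WT replicate 1, 3 or 4 (up to 0.0909).

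**Figure D2:**
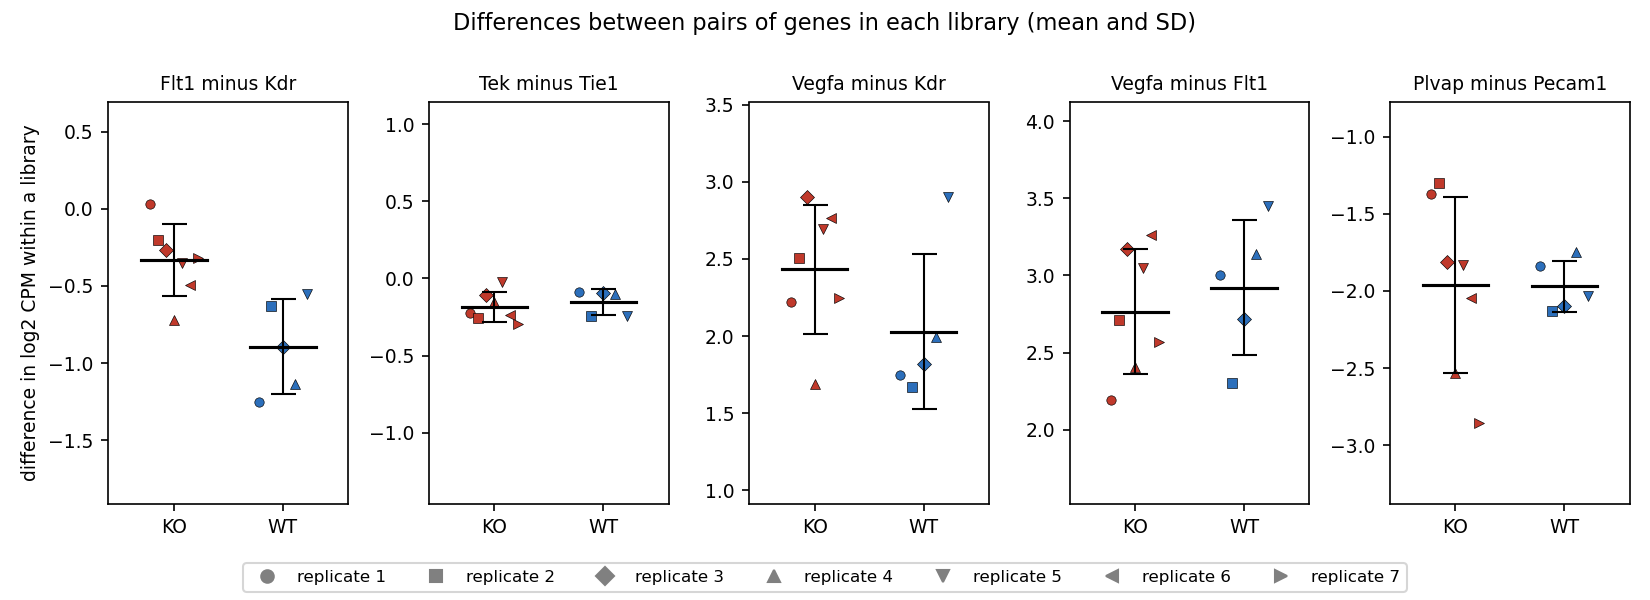
Difference in log2 CPM between the genes of a pair within each library (vertical axis, the same span in each panel) in KO (left, red) and WT (right, blue) glands; points are libraries, shapes give the replicate number, and bars are mean and SD. Flt1 minus Kdr averages -0.33 in KO and -0.89 in WT, and Tek minus Tie1 lies near -0.2 in both groups.

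Kdr was called lower in KO and Flt1 was not called, and the sequences just upstream of their transcription starts are shown. Both genes lie on the minus strand of mouse chromosome 5 (mm10), Kdr from 75932827 to 75978458 and Flt1 from 147561604 to 147726011. Each window covers bases 200 to 11 before the RefSeq start (GRCm38.p6), at chr5:75978466-75978655 for Kdr and chr5:147726022-147726211 for Flt1. Neither window overlaps an annotated exon of its gene. Capitals mark matches, on either strand, to the ETS core GGAA, the GC box GGGCGG, the cyclic AMP response element TGACGTCA and the TATA box TATAAA.
Kdr: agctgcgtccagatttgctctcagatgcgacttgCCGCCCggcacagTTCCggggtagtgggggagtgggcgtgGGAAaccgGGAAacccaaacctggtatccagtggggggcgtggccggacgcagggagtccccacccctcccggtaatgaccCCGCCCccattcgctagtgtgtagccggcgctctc
Flt1: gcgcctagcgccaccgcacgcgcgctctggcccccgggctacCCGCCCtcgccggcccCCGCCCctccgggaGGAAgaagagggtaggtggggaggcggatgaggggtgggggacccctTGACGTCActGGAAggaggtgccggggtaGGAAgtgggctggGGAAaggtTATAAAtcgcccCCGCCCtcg

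The Kdr window held 3 ETS cores and 2 GC boxes and no match to the other 2 motifs. In the Flt1 window there were 4 ETS cores, 3 GC boxes, 1 cyclic AMP response element and 1 TATA box. Among 32851 mouse promoter windows of the same length, 87.7% held an ETS core, 29.5% a GC box, 1.4% the cyclic AMP response element and 9.7% the TATA box. These are letter matches in a short window and no measure of binding.

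Vegfa, the ligand, was the most abundant of the 10 genes. KO libraries held between 5.56 and 6.15 log2 CPM with a median of 6.02, and WT replicates 1 to 5 held 5.81, 6.03, 5.85, 6.27 and 6.46. The groups overlapped widely, with KO replicates 1 and 4 below all WT libraries. Means were 5.92 ± 0.23 in KO and 6.08 ± 0.28 in WT (SD, n = 7 and 5; log2 change -0.16, SE 0.13, limma adjusted p = 0.459). Relative to Kdr within a library, Vegfa was 0.41 higher on the log2 scale in KO, but the spread was as large (exact permutation p = 0.153, adjusted p = 0.382). Vegfa minus Flt1 differed by -0.16 (exact permutation p = 0.529, adjusted p = 0.715).

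Tek, the angiopoietin receptor, and Tie1, its partner receptor, ran closely together. In KO libraries Tek lay between 1.51 and 2.17 log2 CPM with a median of 1.97, and in WT replicates 1 to 5 it was 1.90, 2.58, 2.13, 2.21 and 1.77. Tie1 had a KO median of 2.14 (range 1.74 to 2.33), against WT values of 1.99, 2.82, 2.22, 2.31 and 2.02. For both genes WT replicate 2 was the highest library of the 12 and KO replicate 6 the lowest. The log2 changes were -0.18 for Tek (SE 0.15, limma adjusted p = 0.444) and -0.15 for Tie1 (SE 0.15, limma adjusted p = 0.543). Tek minus Tie1 averaged -0.18 ± 0.10 in KO and -0.15 ± 0.08 in WT (SD, n = 7 and 5; exact permutation p = 0.572, adjusted p = 0.715).

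The genes of endothelial junctions did not pass the test. Pecam1, an adhesion molecule between endothelial cells that leukocytes and platelets also carry, had a KO range of 3.28 to 4.41 log2 CPM (median 3.77) and WT values of 3.50, 4.09, 3.78, 3.80 and 3.75. Its group means differed by -0.01 (SE 0.16, limma adjusted p = 0.975). Cdh5, which encodes VE-cadherin of the adherens junction, lay between 3.29 and 4.20 in KO (median 3.76), against 3.78, 4.54, 3.92, 3.80 and 3.57 in WT (log2 change -0.16, SE 0.17, limma adjusted p = 0.590). Esam, an immunoglobulin-type adhesion molecule of endothelial tight junctions, ran from 1.49 to 2.68 in KO (median 2.13), against 1.84, 2.56, 2.23, 1.98 and 1.81 in WT (log2 change 0.03, SE 0.21, limma adjusted p = 0.939). In each of these genes the KO libraries spread both above and below the middle of the WT libraries.

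Eng, a co-receptor for ligands of the TGF-beta family, lay between 2.58 and 3.28 log2 CPM in KO with a median of 2.96, against 2.89, 3.55, 2.98, 2.99 and 2.64 in WT replicates 1 to 5 (log2 change -0.02, SE 0.16, limma adjusted p = 0.941). Exons of Eng overlap those of Fpgs on the other strand, and reads of the pair could be mixed if strand was not used in counting. Plvap, which builds the diaphragms of fenestrated capillaries, was the member whose KO libraries differed most among themselves. They ran from 1.10 in replicate 7 to 2.47 in replicate 1 with a median of 1.88, while WT libraries held 1.66, 1.96, 1.69, 2.05 and 1.72. The SD of Plvap was 0.53 in KO (n = 7) and 0.18 in WT (n = 5), around means of 1.81 and 1.82 (log2 change -0.01, SE 0.22, limma adjusted p = 0.989). Plvap minus Pecam1 averaged -1.96 ± 0.57 in KO and -1.97 ± 0.17 in WT (SD, n = 7 and 5; exact permutation p = 0.979, adjusted p = 0.979).

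**Figure D3:**
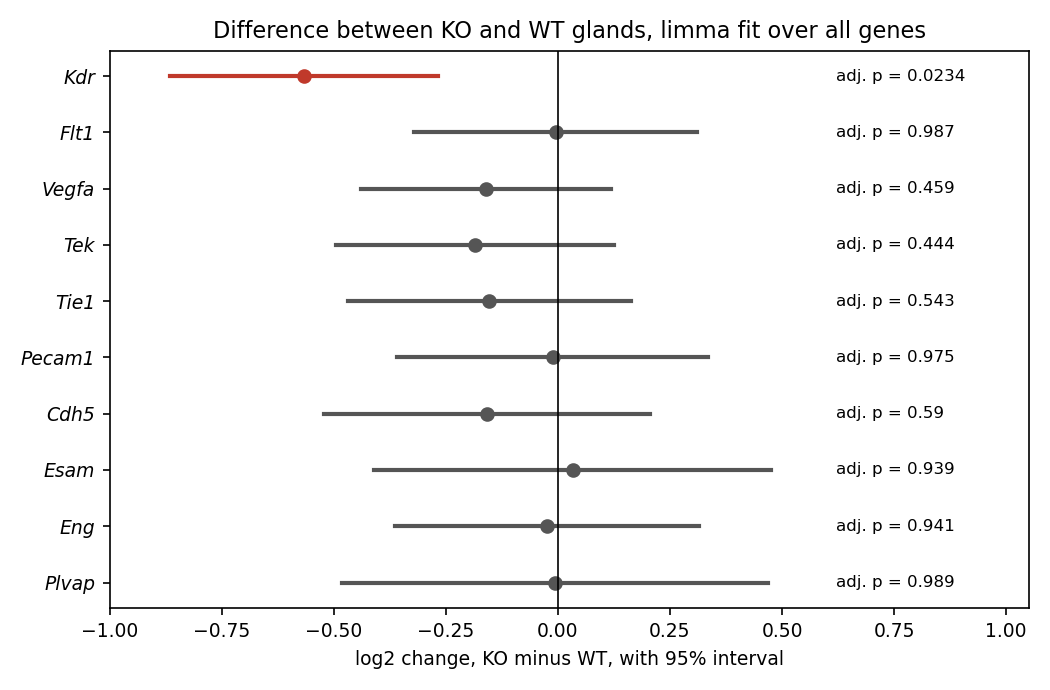
Log2 change of KO minus WT (horizontal axis) with its 95% interval for each of the 10 genes, from the limma fit over all genes; red marks an adjusted p under 0.05. Kdr lies at -0.57 with an interval that ends at -0.27, and the intervals of the other 9 genes cross 0.

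Per kilobase of merged annotated exons, the level of Vegfa was 14.3 ± 2.2 CPM in KO and 16.1 ± 3.2 CPM in WT (SD, n = 7 and 5), above all 9 endothelial genes in all 12 libraries. Cdh5 followed with 3.29 ± 0.67 in KO and 3.71 ± 1.06 in WT CPM per kilobase, and lay above Pecam1 in all 12 libraries. Pecam1, Eng, Plvap and Esam came next, and the neighbours in that order kept it in 8 (Pecam1 above Eng), 7 (Eng above Plvap) and 8 (Plvap above Esam) of the 12 libraries, so neighbours do not differ beyond their spread. Farther apart in the order, Pecam1 lay above Esam per kilobase in all 12 libraries and Eng above Esam in 11. Kdr had 1.26 ± 0.22 CPM per kilobase in KO and 1.88 ± 0.37 in WT. Esam exceeded Kdr per kilobase in 6 of 7 KO libraries and in 0 of 5 WT libraries. Tie1, Tek and Flt1 closed the order, with Flt1 lowest at 0.669 ± 0.110 in KO and 0.680 ± 0.179 CPM per kilobase in WT. Merged exon length counts every annotated transcript, so genes with long rare exons are understated on this scale.

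Within each genotype the endothelial genes varied together from mouse to mouse. WT replicate 2 lay above its group mean in all 9 genes other than Vegfa, by 0.44 on average on the log2 scale. KO replicate 6 lay below its group mean in all 9, by an average log2 difference of -0.42, and so did WT replicate 5, with an average of -0.26. KO replicate 4 stood highest among KO mice, 0.28 above the group mean, with 7 of the 9 genes above it. The muscle marker score was 6.80 log2 CPM in KO replicate 4 and 2.85 in KO replicate 6, its highest and lowest values among KO libraries. In WT replicate 2 that score was 3.38, the second lowest WT value. The part of muscle RNA in this spread was not tested.

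As a description over the 12 libraries, with group means removed, each gene was set against the mean of the other 8 endothelial genes. Tie1 (Pearson r = 0.94) and Tek (0.89) followed that mean most closely. Esam, Eng, Cdh5, Pecam1 and Flt1 had r between 0.79 and 0.84, Kdr 0.64 and Plvap 0.25. Vegfa ran the other way from the mean of the 9 endothelial genes (r = -0.51). All these points share the same libraries and normalization.

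**Figure D4:**
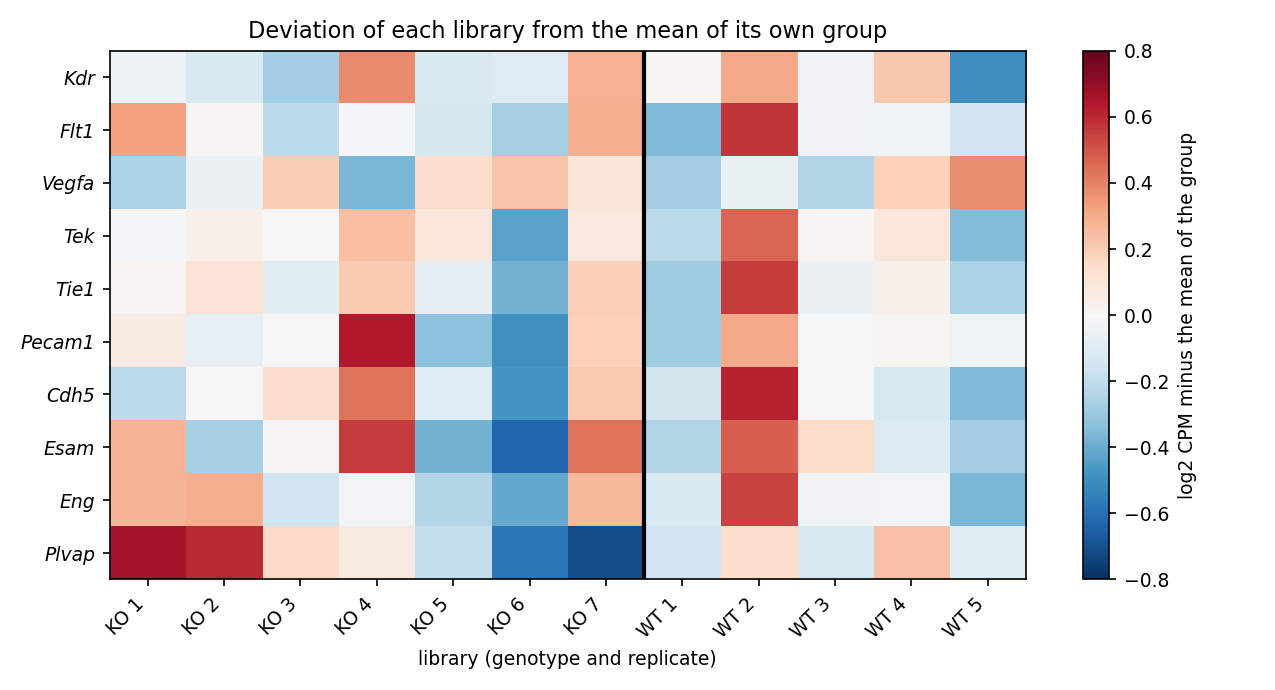
Deviation of each library (columns, KO replicates 1 to 7 left of the black line and WT replicates 1 to 5 right of it) from the mean of its own genotype, in log2 CPM, for the 10 genes (rows); red is above and blue below the mean. WT replicate 2 is red and KO replicate 6 and WT replicate 5 are blue in all rows except Vegfa, and for WT replicate 2 Vegfa is slightly below its mean.

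The level of Kdr was also set against that of the other endothelial genes, a measure chosen after the values were seen. Kdr minus the mean of the other 8 endothelial genes was 0.78 ± 0.23 on the log2 scale in KO (0.53 to 1.14) and 1.29 ± 0.22 in WT (1.02 to 1.52; SD, n = 7 and 5). KO replicate 6 was the single KO library above any WT library. With that mean of 8 genes as a covariate in the fit over all genes, Kdr fell by 0.52 on the log2 scale (SE 0.12, limma adjusted p = 0.0114).

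Among genes outside the 10, those closest to the mean of the 9 endothelial genes over the 12 libraries, of 9747 genes compared, included Col4a2 (Pearson r = 0.95) and Col4a1 (0.92), the chains of basement membrane collagen IV. Dysf, Ehd2, Glb1l2, Hspg2 and Sparcl1 followed with r from 0.89 to 0.91. None of these 7 was called, and their log2 changes lay between -0.23 and 0.40. The genes most like Vegfa were Rpgrip1, Edc3, Rnf8, Ppp1r37 and Ndufa1, with r from 0.92 to 0.95. Of these Ndufa1, a subunit of respiratory complex I, was lower in KO (log2 change -0.37, SE 0.10, limma adjusted p = 0.0297).

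Other ligands and receptors of the VEGF and angiopoietin systems gave 0 calls, where 9.36% of all genes were called. The authors' deposited table also calls 0 of them and 9.64% of all genes. Of 7 further VEGF family genes 5 were in the table, and 0 had an unadjusted p under 0.05 in limma, against 26.6% of all genes. Vegfb, a ligand of FLT1, stood at a log2 change of 0.26 (SE 0.15, adjusted p = 0.278), and Flt4, the lymphatic VEGF receptor, one of -0.65 (SE 0.33, adjusted p = 0.220). Pgf, placental growth factor, which also binds FLT1, had -0.91 (SE 0.78, adjusted p = 0.490) with an SD of 1.91 log2 CPM in KO, n = 7, and 0.19 in WT, n = 5. Of 4 genes for angiopoietins and partners of the Tie receptors 1 had an unadjusted p under 0.05. It was Angpt2, the antagonist ligand of TEK (log2 change -0.97, SE 0.39, limma adjusted p = 0.125), at a low level of -0.45 log2 CPM in KO and 0.52 in WT. Angpt1, the agonist, averaged 5.11 ± 0.51 log2 CPM in KO and 4.63 ± 0.33 in WT (SD, n = 7 and 5; log2 change 0.47, limma adjusted p = 0.220).

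A wider set of 111 genes in 9 lists of endothelial functions, which included those ligands and receptors, gave 0 higher and 1 lower in KO. That is 0.901% called, against 9.36% of all genes. The lists also hold genes not particular to endothelium, so the share does not describe endothelium alone. Ctnnb1 averaged 6.90 log2 CPM in both groups and Cd36 9.71 in KO and 9.87 in WT, against 3.77 and 3.78 for Pecam1. At an unadjusted p under 0.05 there were 13 of the 111 (11.7%), against 26.6% of all genes, and the authors' deposited table calls 2, Nr2f2 and Reln. Their median log2 change was 0.00. The called gene was Nr2f2, a transcription factor of venous identity that stromal cells also express (log2 change -0.67, SE 0.19, limma adjusted p = 0.0425). Its KO libraries all lay below its WT libraries. It lost its call without KO replicate 1, 2 or 5 or any single WT library (adjusted p up to 0.112). Of 26 other pan-endothelial genes 0 were called and 3 had an unadjusted p under 0.05. Those were Calcrl, a receptor for adrenomedullin (log2 change -0.36), Cd34, a sialomucin that stromal cells share (0.42), and Tmem204, a membrane protein (-0.39), with limma adjusted p from 0.104 to 0.128.

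In the capillary transport and tone list 0 of 18 were called and 3 had an unadjusted p under 0.05. Of all genes 9.36% were called and 26.6% had an unadjusted p under 0.05, and the counts of the lists that follow stand beside these shares. Cav1, which forms caveolae, stood at 0.49 on the log2 scale (SE 0.16, limma adjusted p = 0.0619), and Car4, a carbonic anhydrase of capillaries, at -1.35 (SE 0.43, limma adjusted p = 0.0608). The level of Car4 was low, at -0.60 ± 0.77 log2 CPM in KO and 0.75 ± 0.88 in WT (SD, n = 7 and 5), with WT replicate 3 highest at 2.18. The arterial, Notch and tip-cell list had 0 of 13 called and 0 with an unadjusted p under 0.05 in limma. Its leading gene Dll4, the Notch ligand of tip cells, stood at -0.36 (SE 0.17, limma adjusted p = 0.198). Lymphatic genes gave 0 of 6 called, with Prox1, the lymphatic master regulator, at -0.51 (SE 0.25, limma adjusted p = 0.210). The signs in this list were mixed, with 3 positive and 3 negative changes and a median of -0.16. Reln, the 1 lymphatic gene with an unadjusted p under 0.05, is the 1 called there by the authors' deposited table. This secreted matrix protein averaged -1.88 ± 2.29 log2 CPM in KO and 0.68 ± 0.25 in WT (SD, n = 7 and 5; log2 change -2.56, SE 0.93, limma adjusted p = 0.102). Every KO library was under the lowest WT library, and KO replicate 5 was far below the rest at -6.74. Without KO replicate 5 Reln was called (limma adjusted p = 0.0119). Leukocyte adhesion genes gave 0 of 7, with Icam1 at 0.50 (SE 0.25, limma adjusted p = 0.204), and 0 had an unadjusted p under 0.05. Partners of VE-cadherin and of TGF-beta receptors gave 0 of 16 with 2 at an unadjusted p under 0.05, led by Bmpr2, a BMP receptor (log2 change 0.33, SE 0.12, limma adjusted p = 0.0953).

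Downstream of the VEGF receptors, 0 of 28 kinases, adaptors and early genes were called, against 9.36% of all genes. Of the 28, 3 had an unadjusted p under 0.05, against 26.6% of all genes. Cdc42, a small GTPase of cell shape, stood at 0.26 (SE 0.08, limma adjusted p = 0.0525). Of 20 hypoxia genes, the set to which Vegfa belongs, 0 were higher and 1 was lower, where 4.84% of all genes were higher and 4.52% lower. Slc2a1, the glucose transporter GLUT1 that also feeds lactose synthesis, fell by 0.42 on the log2 scale (SE 0.12, limma adjusted p = 0.0426), a call that ended without KO replicate 1, 2, 3 or 4 or WT replicate 1, 2, 3 or 5 (adjusted p up to 0.106). Ddit4, a stress-induced inhibitor of mTORC1, had -1.02 (SE 0.30, limma adjusted p = 0.0541), and the median of the list was 0.01.

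Secreted inhibitors of vessel growth gave 2 of 9 higher in KO and 0 lower, with a median log2 change of 0.51, where 4.84% of all genes were higher. At an unadjusted p under 0.05 were 5 of the 9, against 26.6% of all genes. Thbs1, the matrix glycoprotein thrombospondin, averaged 4.72 ± 1.09 log2 CPM in KO and 2.47 ± 0.66 in WT (SD, n = 7 and 5; log2 change 2.25, SE 0.53, limma adjusted p = 0.0263). Serpinf1, which encodes pigment epithelium-derived factor, rose by 0.64 (SE 0.18, limma adjusted p = 0.0354). The Thbs1 call ended without KO replicate 1 or WT replicate 1, 2, 4 or 5 (adjusted p up to 0.0660), and that of Serpinf1 without KO replicate 1, 2 or 3 or WT replicate 1, 2, 4 or 5 (up to 0.0981). Fibroblasts and macrophages also make these proteins. The 10 fibroblast markers summed to between 166 and 430 CPM in KO libraries and between 160 and 233 CPM in WT libraries, and the 12 macrophage markers to between 89.2 and 163 CPM in KO and between 74.6 and 103 CPM in WT. Their part in the rise was not tested.

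Of 15 vessel basement membrane genes 0 were higher and 1 was lower, where 4.52% of all genes were lower. There were 8 positive and 7 negative changes, with a median of 0.05. At an unadjusted p under 0.05 in limma were 7 of the 15, against 26.6% of all genes. Apart from Lamb1 these were positive and not called: Igfbp3 (0.66), Igfbp7 (0.47), Mgp (0.91), Bgn (0.45), Sparc (0.37) and Lama5 (0.35). Mgp, Bgn, Sparc and Lama5 are named after their values were seen. Lamb1, the beta-1 laminin chain, fell by 0.61 on the log2 scale (SE 0.08, limma adjusted p = 0.00151). Epithelium and stroma make this chain as well. No KO library reached the lowest WT library, and the call held whichever library was left out. Of 14 pericyte and vascular smooth muscle genes 4 were higher and 0 lower, where 4.84% of all genes were higher and 4.52% lower. The signs were mixed, with 8 positive and 6 negative changes and a median of 0.26. At an unadjusted p under 0.05 were 10 of the 14, against 26.6% of all genes. Mcam, an adhesion molecule of vessel walls, rose by 0.74 (SE 0.15, limma adjusted p = 0.0103), Tagln, an actin-binding protein, by 0.52 (SE 0.12, limma adjusted p = 0.0194), and Acta2, smooth muscle actin, by 0.51 (SE 0.13, limma adjusted p = 0.0235). The fourth was Cnn1, calponin (0.43, SE 0.11, limma adjusted p = 0.0241), named because it completes the count. Tagln lost its call without WT replicate 1 (adjusted p = 0.0550), Acta2 without WT replicate 1, 4 or 5 (up to 0.0694) and Cnn1 without WT replicate 1 or 5 (up to 0.0696). The vessel, VEGF, hypoxia and mural lists held 197 genes outside the 10, of which 4.57% were called, against 9.36% of all genes. Of the 9 genes called there, Lamb1, Tagln, Acta2 and Cnn1 kept their calls in day 10 libraries alone. Lamb1 and Mcam kept theirs with muscle marker level in the fit. Acta2, Tagln and Cnn1 are also genes of the myoepithelium, and 6 of 9 basal markers were higher (Acta2 and Cnn1 among them), against 4.84% of all genes, with a summed level of 372 to 571 CPM in KO and 305 to 397 CPM in WT. The other 6 mural genes with an unadjusted p under 0.05 were not called, and are named after their values were seen. Negative were Kcnj8, a potassium channel of pericytes (-0.68, limma adjusted p = 0.119), Cspg4, the pericyte proteoglycan NG2 (-0.58, adjusted p = 0.163), and Notch3, a Notch receptor of mural cells (-0.27, adjusted p = 0.163). Positive were Rgs5, a pericyte regulator of G proteins (0.30, limma adjusted p = 0.163), Anpep, an aminopeptidase (1.12, adjusted p = 0.0973), and Des, the muscle filament desmin (1.20, adjusted p = 0.181).

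Marker lists of the other cell types gave 16 of 67 genes higher and 1 lower (25.4% called, against 9.36% of all genes), with a median log2 change of 0.37. Of 12 luminal markers 4 were higher and 1 lower, where 4.84% of all genes were higher and 4.52% lower. The smallest adjusted p belonged to Cldn4, a claudin (log2 change 2.76, SE 0.40, limma adjusted p = 0.00316), and Krt19, a keratin (1.88, SE 0.31, limma adjusted p = 0.00485). The lower gene was Esr1, the estrogen receptor (-0.62, SE 0.13, limma adjusted p = 0.00941), named because it completes the count, with no overlap between the groups. Elf5, Prlr and Ehf, the luminal markers with negative changes that were not called, lay between -0.25 and -0.15. Macrophage markers gave 4 of 12 higher, against 4.84% of all genes. They were led by Cx3cr1 (0.70, limma adjusted p = 0.0193) and C1qb (0.46, limma adjusted p = 0.0201). Cx3cr1 lost its call without WT replicate 3 (adjusted p = 0.0504) and C1qb without WT replicate 1 or 3 (up to 0.0595). Neither was called in day 10 libraries alone (limma adjusted p = 0.133 and 0.186) or with muscle marker level in the fit (0.0697 and 0.0939). The medians were 0.40 for macrophage, 0.37 for basal, 0.32 for fibroblast, 0.23 for luminal and 0.02 for adipocyte markers. Skeletal muscle markers had a median of 1.17 with 0 of 12 called in limma and 1 at an unadjusted p under 0.05, against 26.6% of all genes. In these same libraries the 10 endothelial and VEGF genes together summed to between 126 and 147 CPM in KO and between 127 and 174 CPM in WT. Vegfa, which is not an endothelial marker, averaged 61.4 CPM in KO and 68.9 CPM in WT. The 9 endothelial genes without it summed to between 54.7 and 90.6 CPM in KO and between 65.7 and 109 CPM in WT.

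**Figure D5:**
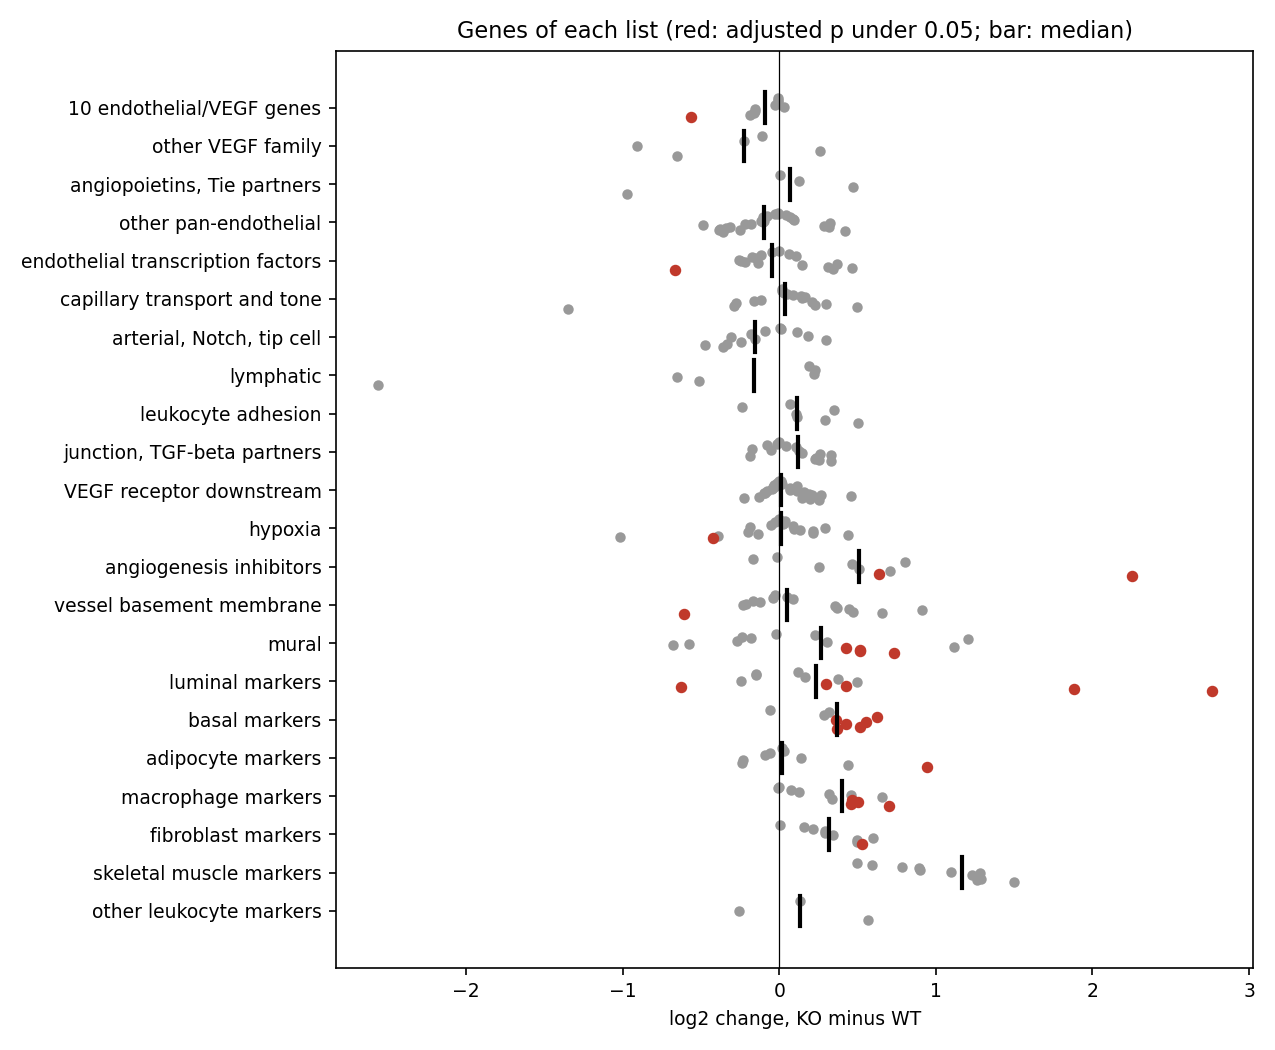
Log2 change of KO minus WT (horizontal axis) for the genes of each list (rows); each point is a gene, red points have an adjusted p under 0.05, and the black bar is the list's median. Medians of the endothelial lists run from -0.22 (other VEGF family) to 0.12 (junction, TGF-beta partners), with Kdr and Nr2f2 as the red points. Basal, macrophage and fibroblast markers lie mostly to the right of 0.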

How the data were processed

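The authors deposited 1 table of 11834 genes whose library columns hold log2 CPM. In these deposited log2 values 67.1% of ranks differed by less than 0.01 between the 12 libraries, so they had been quantile-normalized. Per the file headers, further columns give a log2 ratio of KO over WT, a signed fold and a moderated t score, and a raw and an adjusted p-value. The submitters' processing notes name bcl2fastq 2.17, Trimmomatic 0.33, STAR 2.5.2b, RSEM 1.3.0, limma 3.34.5 and the builds mm10 and hg19 without roles. How genes were filtered, and whether counting used strand, is not stated by the labels or headers.

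A model of genotype was fitted to all 11834 genes (limma 3.58.1, R 4.3.3), with trended and robust eBayes and Benjamini-Hochberg adjustment over all genes, and the procedure was tested on simulated data. SE and 95% intervals are moderated. Differences within 5 gene pairs were tested by exact two-sided permutation. The 10 genes and all lists were chosen with earlier results of these data known. Genes named in the text come from the 10 genes, up to 3 genes of smallest adjusted p per vessel, VEGF, hypoxia or mural list (up to 2 for other markers), and the 8 and 5 genes of most like pattern that average 1 log2 CPM or more. Exceptions are marked as such in the text. One gene that this rule names is not reported here. Gene positions and exon lengths come from GENCODE M21 (mm10), promoters from RefSeq (GRCm38.p6), which matched 6 of the 10 genes. Mice are separate animals, so p-values measure spread between mice. Alternatives were a replicate block, lactation day, day 10 alone, 2 normalizations, a filter, eBayes options, library weights, the authors' statistics, leaving out each library and, added after seeing the data, a muscle marker and an endothelial covariate. Pseudocounts do not apply to log2 values.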

Additional observations from a re-analysis of the deposited data

Results flagged for a closer look

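In groups of 5 or 7 libraries, the gap between an extreme library and its nearest neighbour was compared with the range of the group (Dixon's ratio at the 95% level). Of 30 groups examined 2 passed, where chance gives about 1.5. Tek was 1.51 log2 CPM in KO replicate 6, against 1.92 in the next lowest KO library, and that library was low in all 9 endothelial genes. Vegfa minus Kdr was 2.90 on the log2 scale in WT replicate 5, against 2.00 in the next highest WT library, which combines the highest Vegfa and the lowest Kdr of the WT mice.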

How the results depend on the processing

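Called genes numbered 1108, with 268 in day 10 libraries alone, 316 with the muscle covariate and 559 to 1327 when 1 library was left out. The count among the 10 genes was 1, and 0 in day 10 libraries alone and with the muscle covariate (0 to 1 when 1 library was left out). Kdr kept its direction in all alternatives run. Median centring and quantile normalization (1106 and 1108 called genes) could change little, since the deposited values were already quantile-normalized. Over the libraries left out the change of Kdr lay between -0.69 and -0.49.

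Genes with changes near 0 turned sign without being called. Pecam1, Eng and Plvap were 0.0507, 0.00546 and 0.25 with the replicate block, and Flt1 and Eng 0.22 and 0.18 in day 10 libraries alone. Flt1 was 0.0265 with library weights and 0.00517 in the authors' deposited statistics, where Plvap was 0.0236, and Esam was -0.13 with the muscle covariate. When 1 library was left out Eng ran from -0.12 to 0.11, Esam from -0.0595 to 0.15, Flt1 from -0.0933 to 0.14, Pecam1 from -0.12 to 0.0708 and Plvap from -0.12 to 0.11.

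Flt1 minus Kdr was 0.59 higher in KO with the replicate block (adjusted p = 0.312 by exact sign flips, whose smallest unadjusted p is 0.0625) and 0.71 in day 10 libraries alone. It ran from 0.47 to 0.65 over the libraries left out. Tek minus Tie1 was 0.000217 with the block. Plvap minus Pecam1 was -0.0126 with lactation day and -0.00769 in day 10 libraries alone, and -0.11 to 0.15 over the libraries left out. Vessel, VEGF, hypoxia and mural lists gave 6 higher and 3 lower of 197 genes (4.57% called, against 9.36% of all genes). The counts were 11 and 5 with the block, 3 and 1 in day 10 libraries alone, and 1 to 12 and 1 to 3 over the libraries left out. Marker lists gave 16 higher, 8 in day 10 libraries alone and 5 to 15 over the libraries left out, and 1 to 2 lower.

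The correlations of same-numbered deviations ran from -0.17 to 0.21, and 2 of 5 KO and 2 of 5 WT libraries correlated best with their own number. Correlations of so few libraries cannot decide whether the replicate numbers pair the mice. The block gave 1090 called genes. The cause of these changes was not tested. Day 10 libraries alone and fits without a library hold fewer samples. Depth is unknown, and genes below about 1 log2 CPM are the least precise.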
